A study of Homo sapiens with 12 samples.

Results

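The genes described here are 7 members of the pathway that carries a signal from RAS through the RAF and MEK kinases to ERK: NRAS, HRAS, ARAF, BRAF, MAP2K1, MAP2K2 and MAPK3. They were chosen by name, from 20136 protein-coding genes of chromosomes 1 to 22, X and Y. At each of them the peaks of H3K4me3, a histone mark found at active promoters, and of an IgG background reaction were read within 1, 2.5 and 10 kb of the most 5′ annotated end and of any transcript start.

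RAS proteins are membrane-bound GTPases that growth factor receptors switch on. Active RAS recruits RAF kinases, which phosphorylate the MEK kinases, and MEK phosphorylates ERK, which enters the nucleus and alters transcription. H3K4me3 is deposited around the start sites of transcribed genes, above all where the DNA is rich in CpG dinucleotides, so a promoter peak is commonly read as a sign that a promoter is in use.

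The cells were BON1, a human pancreatic neuroendocrine tumor line. The line BON1/TGL/HA-Bcl-xL, called overexpressing below, makes an excess of Bcl-xL, which blocks apoptosis, with an HA tag. Its counterpart, BON1/TGL/pQ, served as control. Both were grown in the same puromycin-containing medium, and 500000 cells per condition were profiled by CUT&RUN, in which an antibody guides a nuclease to chromatin and the released fragments are sequenced. Peak lists of 11 libraries were used. H3K4me3 was read in 3 control libraries and in overexpressing replicates 2 and 3, while replicate 1 of the latter was not analysed here. IgG was read in 3 libraries of each line. The labels do not say whether the lines were clones or pools, nor whether replicates were separate cultures, so the p-values below measure only the spread between these libraries.

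The H3K4me3 lists held 17711, 12159 and 10247 peaks in control replicates 1 to 3. Those of overexpressing replicates 2 and 3 held 16379 and 15497. The genome-wide background floor of each list, which rises with the number and length of the fragments sequenced, was 0.0478 fragments per base in control replicate 3 and 0.0659 to 0.0705 in the other 4 H3K4me3 libraries. Control replicate 3 thus had both the lowest floor and the fewest peaks. Of 10 neuroendocrine markers, 3 (CHGB, SCG2 and SCG3, all encoding granins of secretory granules) had an H3K4me3 peak within 1 kb in all 5 libraries, 2 in some and 5 in none. Of 3 epithelial markers the neighbouring keratin genes KRT8 and KRT18, whose windows held the same number of bases under peaks in each library, had one in all 5 and EPCAM in 4. In any library, 0 of 4 blood markers and 0 of 3 fibroblast markers had one within 1 kb, though COL1A1 was marked within 2.5 kb in overexpressing replicate 2. The endothelial marker chosen, PECAM1, was not in the annotation.

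The stretches below are those that the peaks of most libraries shared at 6 of the members. They are shown because the results turn on where the mark sat and on the DNA under it. Each was read from the GRCh37 (hg19) reference on the strand of its gene, 5′ to 3′, with exon bases left out, and capitals mark CpG dinucleotides.
NRAS, under peaks of 5 libraries, upstream of the gene, chr1:115259406-115259469, minus strand: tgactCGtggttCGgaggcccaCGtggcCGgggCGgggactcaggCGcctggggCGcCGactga
BRAF, 5 libraries, intron, chr7:140623990-140624127, minus strand: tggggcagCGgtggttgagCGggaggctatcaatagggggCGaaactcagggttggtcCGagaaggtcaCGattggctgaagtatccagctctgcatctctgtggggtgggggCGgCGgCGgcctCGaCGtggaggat
MAP2K1, 5 libraries, intron, chr15:66680213-66680245, plus strand: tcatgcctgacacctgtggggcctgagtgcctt
ARAF, 4 libraries, intron, chrX:47420839-47420951, plus strand: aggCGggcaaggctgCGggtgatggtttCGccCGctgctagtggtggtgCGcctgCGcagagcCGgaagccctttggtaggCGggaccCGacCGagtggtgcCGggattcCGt
MAP2K2, 4 libraries, upstream of the gene, chr19:4124120-4124217, minus strand: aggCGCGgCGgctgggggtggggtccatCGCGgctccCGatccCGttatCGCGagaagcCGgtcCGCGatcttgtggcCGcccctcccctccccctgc
HRAS, 3 libraries, intron of the longest transcript, chr11:535682-535766, minus strand: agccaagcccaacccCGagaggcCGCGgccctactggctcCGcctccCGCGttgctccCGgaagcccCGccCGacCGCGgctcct

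CpG density separated these stretches. It was 13.3 per 100 bases at MAP2K2, 12.9 at HRAS, 12.5 at NRAS and 10.6 at ARAF. BRAF had 7.2 CpG per 100 bases. The MAP2K1 stretch, which is 33 bases long, held 0 CpG dinucleotides, with a GC content of 60.6%.

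Within 1 kb of the 5′ end, NRAS, BRAF and MAP2K1 had an H3K4me3 peak in all 5 libraries, ARAF and MAP2K2 in 4, and HRAS and MAPK3 in none. A peak in all 5 libraries was found at 21.3% of all protein-coding genes and a peak in at least 1 library at 48.2%, against 3 and 5 of the 7 members. With so few members these counts describe the members and were not tested. The number of members with a peak was 5, 5 and 3 in control replicates 1 to 3, 4.33 ± 1.15 (SD, n = 3), and 5 in each overexpressing library (n = 2). Over all genes the share with such a peak was 40.4, 32.4 and 28.2% in the control libraries and 38.1 and 36.5% in the overexpressing ones, so control replicate 3 was lowest there too. The 4 libraries other than control replicate 3 held peaks at the same 5 members.

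**Figure D1:**
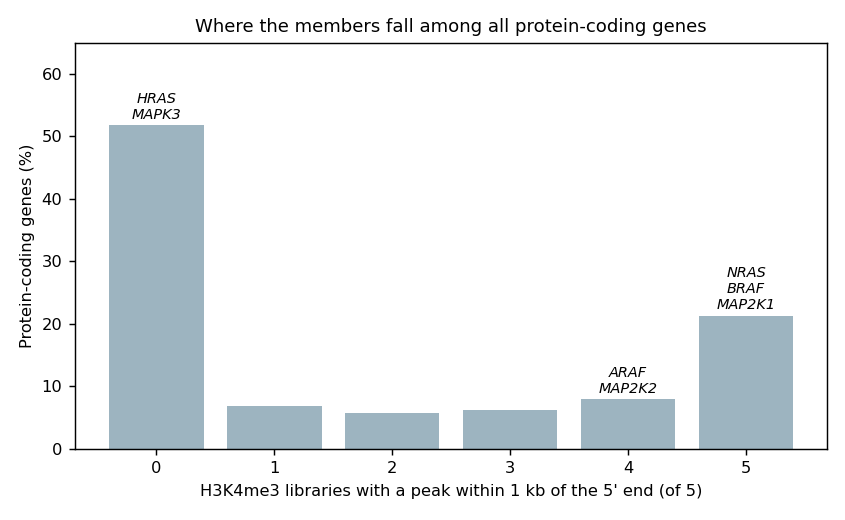
Share of all protein-coding genes (bars, percent) by the number of the 5 H3K4me3 libraries with a promoter peak (at most 1 kb from the 5′ end), with the members named above their bar. HRAS and MAPK3 stand among the 51.8% of genes with no peak, ARAF and MAP2K2 at 4 libraries, and NRAS, BRAF and MAP2K1 at all 5.

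NRAS encodes a RAS GTPase and has a single annotated transcript start, at position 115259392 of chromosome 1 on the minus strand. A peak at this start was present in every H3K4me3 library. Its summit lay at -22, -25 and -54 bp in control replicates 1 to 3 and at -28 and -44 bp in overexpressing replicates 2 and 3, negative values being upstream. The summit held 18, 9 and 10 fragments in the control libraries and 7 and 12 in the overexpressing libraries, so the groups overlapped. Downstream of the start the libraries differed. Control replicate 1 had no second peak, control replicate 2 and overexpressing replicate 3 had one with summits at 389 and 387 bp, overexpressing replicate 2 had one at 615 bp and control replicate 3 one at 939 bp. In overexpressing replicate 3 the downstream peak, with 17 fragments, was higher than that at the start. In overexpressing replicate 2 both peaks held 7 fragments, and in control replicates 2 and 3 that at the start was the higher.

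HRAS encodes another RAS GTPase. It is annotated with 9 transcript starts over 3345 bp on chromosome 11, the most 5′ of them at 537321 on the minus strand, and no library had a peak within 1 kb of that end. The mark lay further into the gene. Control replicates 1 and 2 and overexpressing replicate 2 had a peak whose summit was -81, -151 and -172 bp from the transcript start at 535576, with 8, 7 and 8 fragments. Control replicate 3 and overexpressing replicate 3 had none, so presence did not follow the line. The nearest start of another gene is that of LRRC56, at 537527 on the opposite strand.

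ARAF and BRAF encode RAF kinases, which RAS-GTP binds and which phosphorylate MEK. At ARAF, on chromosome X with its 5′ end at 47420604, the summit lay downstream at 284 and 265 bp in control replicates 1 and 2 and at 276 and 284 bp in overexpressing replicates 2 and 3. It held 13 and 6 fragments in these control libraries and 11 and 12 in the overexpressing libraries. Control replicate 3 had no peak within 2.5 kb, and control replicate 1 had a further one at -204 bp with 8 fragments. A lower peak at about 5 kb upstream, in an exon of the long noncoding RNA gene ENSG00000289890, was present in 4 libraries, control replicate 3 among them and control replicate 2 not. Its summits lay at -4954 and -4924 bp in control replicates 1 and 3 and at -4939 and -4905 bp in the overexpressing libraries, with 5 to 7 fragments. The noncoding gene starts 177 bp into ARAF on the other strand, so peaks here cannot be assigned to one of the 2 genes.

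BRAF, on chromosome 7 with its 5′ end at 140624729 on the minus strand, had the highest summits of the 7 genes in each of the 5 libraries. They held 24, 22 and 23 fragments in control replicates 1 to 3 and 25 and 27 in overexpressing replicates 2 and 3. Within their own lists, by the authors' -log10 p, these peaks ranked at percentiles 92.3, 95.1 and 97.6 in control and 95.7 and 97.3 in overexpressing libraries. The summit lay in the intron, at 656, 667 and 650 bp in the control libraries, and at 694 and 667 bp in the overexpressing ones. This range of 44 bp or a smaller one was found at 25.9% of the 4118 genes with a summit within 1 kb in all libraries, and a median summit as far downstream at 13.2%. Divided by the floor of each list, the summits were 364.2, 312.1 and 481.2 in control and 361.3 and 396.5 in overexpressing libraries, and both overexpressing values fell inside the range of the control libraries.

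A second BRAF peak was called in both overexpressing libraries and in no control library. It covered 140623630 to 140623746 in replicate 2 and 140623653 to 140623841 in replicate 3, with summits at 1016 and 1026 bp and 11 and 12 fragments. The wide BRAF peak of control replicate 1 began at 140623846, beyond the end of the replicate 3 peak. A merged region held by both overexpressing and no control library lay within 2.5 kb of the 5′ end at 4.15% of the 5151 genes with a peak there in all 5 libraries, and one held by all control and no overexpressing library at 1.94%. BRAF was the only one of the 7 members with such a region, and it was looked at after its values were seen. The overexpressing lists were longer than those of control replicates 2 and 3. With every list cut to its 10247 strongest peaks, the second peak was present in overexpressing replicate 3 and absent in replicate 2, which ended the call. With a -log10 q of at least 5 it was present in both.

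MAP2K1 and MAP2K2 encode MEK1 and MEK2, the kinases that phosphorylate ERK. MAP2K1, on chromosome 15 with its 5′ end at 66679175, had peaks in 4 places within 2.5 kb. One group of summits lay upstream, at -199 and -267 bp in control replicates 1 and 2 and at -215 and -204 bp in overexpressing replicates 2 and 3. This group overlapped exons of TIPIN, which starts at 66679084 on the opposite strand, so these peaks cannot be assigned to one of the 2 genes. In control replicate 2 it was the only MAP2K1 peak within 1 kb, so the call in all 5 libraries at that distance, and with it the count of 3 members, rests on it. Summits at the start itself, at 7, 51 and 24 bp, occurred in control replicates 1 and 3 and overexpressing replicate 3, and further ones at 693 and 651 bp in control replicate 1 and overexpressing replicate 2. The only position marked in every library was the intronic one printed above, with summits at 1061, 1082 and 1066 bp in the control libraries, and at 1054 and 1049 bp in the overexpressing ones. It held 16, 12 and 12 fragments in control and 16 and 15 in overexpressing libraries.

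MAP2K2, on chromosome 19 with its 5′ end at 4124119 on the minus strand, had 1 peak, across the start, in 4 libraries. Its summit lay at -86 and -14 bp in control replicates 1 and 2 and at -43 and -24 bp in overexpressing replicates 2 and 3, with 12, 8, 9 and 10 fragments. Both overexpressing values lay between those of the control libraries with a peak, and control replicate 3 had none. Like ARAF, MAP2K2 was thus marked in every H3K4me3 library but control replicate 3, a pattern seen at 4.32% of all genes.

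MAPK3 encodes ERK1, the last kinase of the cascade. No library marked the 2.5 kb on either side of its 5′ end, at 30134827 of chromosome 16 on the minus strand, where 46.5% of all genes had none. Control replicate 1 had 1 peak inside the gene, 68 bp from the transcript start at 30128188, with 3 fragments at its summit and a rank at percentile 2.7 of its list. At summits of so few fragments, a mark at MAPK3 or HRAS below the calling threshold was not detectable.

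**Figure D2:**
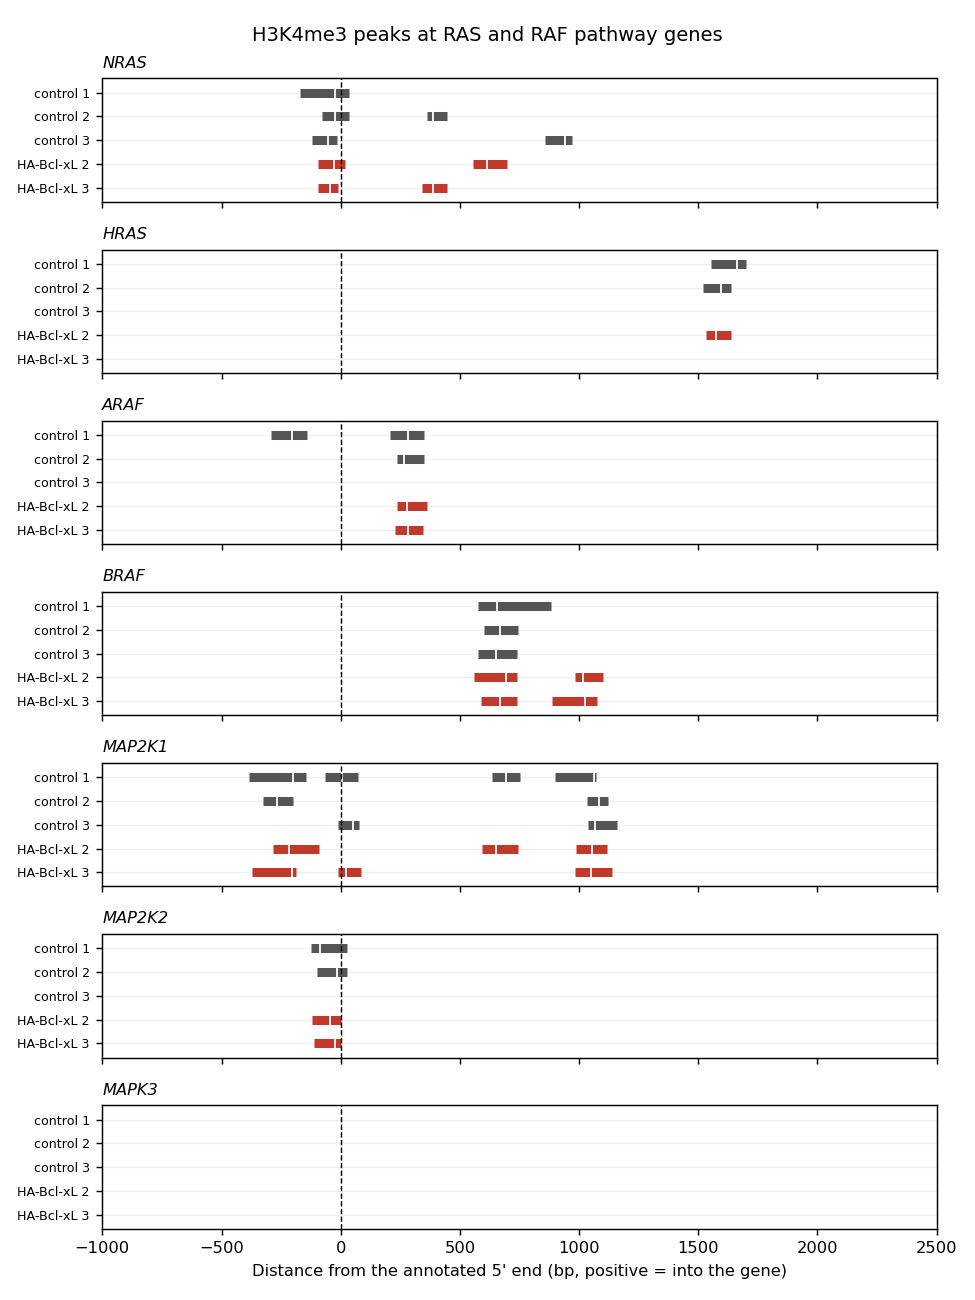
H3K4me3 peaks (bars, white tick at the summit) by distance in bp from the 5′ end of each gene, with 1 row per library, control in grey and overexpressing in red. The main BRAF summits fall between 650 and 694 bp in all 5 libraries, those of the second peak at 1016 and 1026 bp in the overexpressing ones, HRAS peaks lie more than 1 kb into the gene, and the rows of control replicate 3 are empty at HRAS, ARAF, MAP2K2 and MAPK3. The upstream ARAF peaks and the MAPK3 peak at 6707 bp fall outside the axis.

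No IgG library had a peak within 10 kb of the 5′ end of any of the 7 genes. The IgG lists held 1699, 1674 and 2113 peaks in control libraries and 268, 266 and 244 in overexpressing ones. Within 10 kb they marked a mean of 1.37% of all genes in control and 0.228% in overexpressing libraries. Over all genes, a peak in at least 1 IgG library was found within 1 kb at 0.785%, within 2.5 kb at 1.47% and within 10 kb at 4.47%. Within 1 kb of any transcript start, where 2.27% of all genes had one, 1 IgG peak appeared, in control replicate 1, at MAP2K1. Its summit was -937 bp from an internal start at 66694079 and held 3 fragments, and no H3K4me3 library had a peak there.

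Wider windows and other starts added HRAS, MAPK3 and ARAF calls. Within 2.5 kb of the 5′ end HRAS had a peak in 3 libraries, so that 6 members had one in at least 1 library, against 53.5% of all genes. Within 10 kb MAPK3 had one in 1 library, and all 7 members had one, against 60.5%. ARAF, through its upstream peak, then joined the members with a peak in all 5 libraries, 4 in number, against 29.7% of all genes. Within 1 kb of any transcript start all 7 members had a peak in at least 1 library, where 56.6% of all genes had one. The members with a peak in all 5 libraries were then NRAS, BRAF and MAP2K1 as before, against 26.5% of all genes. Within 1 kb of the 5′ end 0 members were marked in both overexpressing libraries and no control library, as 0.844% of all genes were, and 0 in the reverse way, as 0.248% were.

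**Figure D3:**
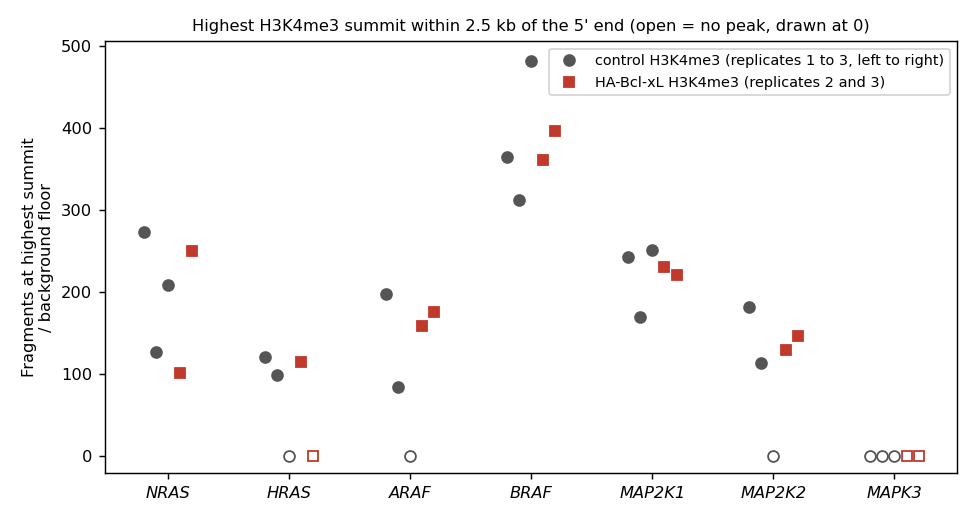
Fragments at the highest H3K4me3 summit within 2.5 kb of the 5′ end divided by the background floor of the list, for each gene and library (circles, control; squares, overexpressing; open symbols, no peak). BRAF lies between 312.1 and 481.2, above every other member, and the lines overlap at each gene with peaks.

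The comparison of the lines asked whether overexpression of Bcl-xL altered H3K4me3. It was fitted at NRAS, BRAF and MAP2K1, which had a peak within 2.5 kb in all 5 libraries, as 25.6% of all genes had. HRAS and MAPK3 were in no fit. Over the 5151 genes fitted with limma, 0.0% had a Benjamini-Hochberg adjusted p under 0.05, for the bases under peaks as for the height of the highest summit, while 269 and 289 genes had an unadjusted p under 0.05. Of 4926 merged regions present in all 5 libraries, 0.0% were called and 259 had an unadjusted p under 0.05.

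BRAF had 310, 144 and 163 bases under peaks within 2.5 kb in control replicates 1 to 3, and 301 and 339 in overexpressing replicates 2 and 3. Control replicate 1 lay between the overexpressing values, so the groups overlapped. After centring of each library the log2 difference, overexpressing minus control, was 0.60 (SE 0.42, limma adjusted p 0.987), and with lists of equal length it was 0.34 (limma adjusted p 0.998). Within 1 kb, a window whose edge cuts the second peak, it was 0.12, and over the region of the main peak alone (140623846 to 140624171) it was -0.26 (SE 0.32, limma adjusted p 0.999). The highest summit differed by 0.04 (SE 0.25, limma adjusted p 0.998).

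MAP2K1 had 671, 222 and 208 bases under peaks in control and 480 and 440 in overexpressing libraries, with both overexpressing values inside the control range. The log2 difference was 0.43 (SE 0.44, limma adjusted p 0.996) and that of the highest summit 0.09 (SE 0.24, limma adjusted p 0.998). The intronic peak reached into the 1 kb window in control replicate 1 and both overexpressing libraries, but not in control replicates 2 and 3. Within that window the differences were 0.67 (SE 0.53, limma adjusted p 0.988) and 0.43 (SE 0.25, limma adjusted p 0.883). Heights there thus came from different peaks in different libraries. Over the intronic region alone the width differed by 0.18 (SE 0.295, limma adjusted p 0.999). NRAS had 203, 199 and 222 bases in control and 258 and 192 in overexpressing libraries, a log2 difference of -0.02 (SE 0.43, limma adjusted p 0.999). Over the region at its start alone (115259356 to 115259561) the width differed by -0.49 (SE 0.295, limma adjusted p 0.942). Its highest summit differed by -0.25 (SE 0.33, limma adjusted p 0.983), by 0.40 without overexpressing replicate 2 and by -0.90 without replicate 3. In overexpressing replicate 3 this summit was that of the downstream peak, while in the control libraries it was that at the start. Both overexpressing libraries lay above all control libraries in bases under peaks at 9.44% of the genes fitted and below all at 5.77%. For the highest summit the shares were 4.62% above and 10.2% below. Neither occurred at these 3 genes for either measure.

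ARAF and MAP2K2 entered other fits. Without control replicate 3, the log2 difference in bases under peaks was -0.52 at ARAF (SE 0.46, limma adjusted p 0.978) and -0.14 at MAP2K2 (SE 0.43, limma adjusted p 0.998). In summit height the same fit gave 0.42 at ARAF, opposite in sign (SE 0.29, limma adjusted p 0.9), and -0.01 at MAP2K2 (SE 0.25, limma adjusted p 0.993). Within 10 kb, where the upstream peak gave ARAF a call in all libraries, its difference was 0.10 in bases (limma adjusted p 0.994) and 0.55 in summit height (limma adjusted p 0.851). In simulated data of this design a log2 change of 2 in bases under peaks was recovered at 86.5% of 200 genes and a change of 1 at 4%. A change of 1 was recovered at 76% in summit height and at 0% in the width of merged regions. In each run 200 genes or regions were changed together, which eases the adjustment over all tested. Changes of these sizes or smaller, if confined to a few members, may thus be missed.

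**Figure D4:**
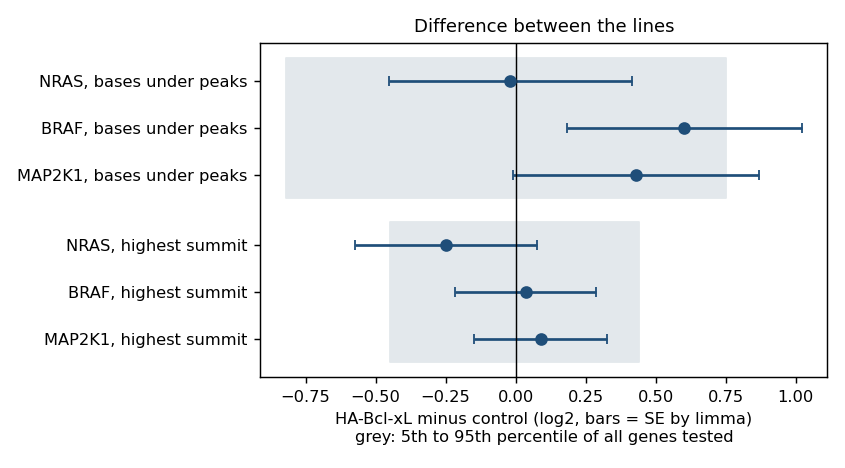
Difference between the lines (log2, overexpressing minus control, points with SE by limma) for bases under peaks and for the highest summit within 2.5 kb. All 6 points lie within the 5th to 95th percentile of all genes tested (grey, -0.82 to 0.75 for bases and -0.45 to 0.44 for height).

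The members also differed in base composition, which the choice of genes did not use. The 2 kb around the 5′ end held 43.5% GC at NRAS, 53.5% at ARAF, 55.2% at BRAF, 60.3% at MAP2K1, 60.5% at MAPK3, 61.0% at MAP2K2 and 64.7% at HRAS, against a median of 55.0% over all genes. Peak calls over all genes rose and fell with GC, from 2.4% with a peak in all 5 libraries in the lowest decile to 35.1% in the fourth and 9.8% in the highest. NRAS lay in the second decile, where 13.8% of genes had a peak in all 5 libraries, and HRAS in the ninth, where 16.7% had. MAP2K1, MAP2K2 and MAPK3 shared the eighth decile, and had a peak in 5, 4 and 0 libraries. The observed over expected CpG ratio was highest at BRAF, 0.88, a value that 95.3% of all genes fell below, and lowest at NRAS, 0.51.

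**Figure D5:**
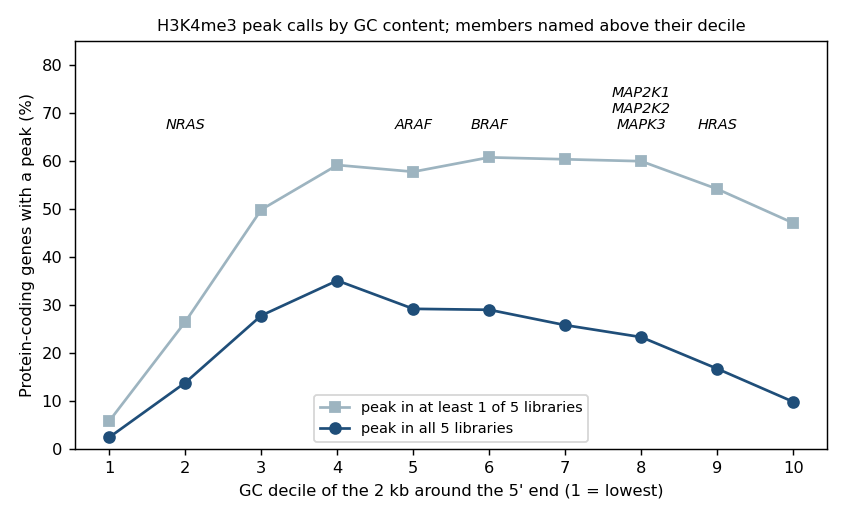
Share of protein-coding genes marked by H3K4me3 at most 1 kb from the 5′ end (percent) by GC decile of the surrounding 2 kb, for a peak in at least 1 library (squares) and in all 5 (circles), with the members named above their decile. The share with a peak in all 5 is 35.1% in the fourth decile and 9.8% in the tenth.

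In the 250 bases before the 5′ end, the GC box (GGGCGG, on either strand), a binding sequence of SP factors, occurred at NRAS, HRAS, BRAF, MAP2K1 and MAP2K2, and at 48.8% of all promoters of that length. The CCAAT sequence, on either strand, occurred at ARAF, MAP2K1 and MAPK3 and at 33.1% of all promoters. The cAMP response element TGACGTCA occurred at BRAF alone among the members, and at 1.88% of all promoters. The E-box CACGTG occurred at NRAS and HRAS and at 7.17%. CCGGAAG, an ETS core, and TATAAA, each on either strand, occurred at HRAS, and at 8.94% and 10.1% of promoters. The 250 bases before the HRAS start at 535576, near which its peaks lay, held 3 GC boxes, 1 CCAAT and 1 ETS core, but 0 TATAAA and 0 CACGTG. The NRF1 palindrome was found at 0 members and 1.09% of promoters. At MAPK3 these 250 bases held 2 CpG dinucleotides and 42.8% GC, against 18 to 34 CpG at the other members.

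The rest of the pathway was read from a list of 46 genes. Of these, 9 had a promoter peak in all 5 libraries (19.6%, close to the 21.3% of all genes), 21 in some and 16 in none, and 0 had an IgG peak within 2.5 kb. Among 7 RAS relatives, RRAS and RAP1B were marked in all 5 libraries and RRAS2 and RAP1A in none. Among 8 adaptors and exchange factors, which link receptors to RAS, SHC1 and SOS2 were marked in all 5, while SOS1 had none and PTPN11 had none within 1 kb but one within 2.5 kb in 4 libraries. Among 8 GTPase activating proteins and brakes, NF1 and RASA1, which switch RAS off, were marked in all 5 and the feedback inhibitors SPRY2 and SPRY4 in none, though each had a peak within 2.5 kb in 1 library. Of 9 kinases and scaffolds IQGAP1 and YWHAB were marked in all 5, and KSR2 and LAMTOR3 in none. None of 4 ERK phosphatases was marked in all 5, and DUSP4 was marked in none, while DUSP5 had a peak within 2.5 kb in all 5. Of 10 ERK substrates and response genes EGR1 alone was marked in all 5, with RPS6KA2 and RPS6KA3 among the 4 in none. RPS6KA3, like PTPN11, had a peak within 2.5 kb in 4 libraries.

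No list gene was marked in every library of one line and in none of the other. Of the 15 that could be fitted, 0 had an adjusted p under 0.05 by limma in either direction, and the median log2 difference was -0.07 for bases under peaks and 0.11 for height, opposite in sign. The median over all genes tested was -0.02 for both. By bases under peaks over the 5 libraries, the list gene most like NRAS was RASA2 (Euclidean distance 0.98 on the log2 scale), that most like BRAF was SOS2 (0.75) and that most like MAP2K1 was RAP1B (0.79). PTPN11 was the most like MAP2K2 (0.59), ARAF (1.15) and HRAS (6.81). MAPK3 was identical to 11 list genes with no peak in the window.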

How the data were processed

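CUT&RUN reactions used an antibody to H3K4me3 or a control IgG, per the labels. The submitters' processing notes name bcl2fastq 2.20, Trimmomatic 0.36, Bowtie2 2.2.9, MACS2 2.1.1, deepTools 3.5.1 and build hg19 without roles. Whether peaks were called against a control, and how duplicates were treated, is not given in the sources used here. The authors deposited 1 peak list per library, so peaks were not called on pooled replicates. Each peak has a deposited score (the integer part of 10 times its -log10 q), a deposited fold enrichment, and deposited -log10 p and -log10 q values. These are the authors' values, and their sizes were set side by side within a list only. For the stricter q, a -log10 q cut of 5 was set on every list. Fragment numbers solved from fold and -log10 p, as below, were compared between lists. Another deposited column gives the summit position.

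The autosomal, X and Y peaks were set against GENCODE release 44 lifted to GRCh37, the build of the lists. A gene had a peak if at least 1 bp of one lay in its window. Coordinates are 1-based. The number n of fragments at a summit was solved from fold = (n + 1) / (background + 1) and a Poisson tail, and gave the deposited -log10 p back with an error of at most 0.001 at 95.9 to 99.97% of the peaks of each list, with 1 solution at every member peak printed. It was recovered for 100% of 2000 simulated peaks. Whether n counts fragments or reads is not recorded. The lowest background of a list held by more than 1 peak is its floor. The lists hold no read totals, and PCR copies are not independent molecules.

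Lines were compared with limma 3.58.1 in R 4.3.3 over all genes that every H3K4me3 library marked within 2.5 kb, on log2 of bases under peaks and log2 of the highest summit over the floor, and over merged regions present in all 5, each library centred on its median. An exact test of 2 against 3 libraries cannot go below 0.2 and was not used. The limma step was tested on simulated data. Python 3.11.15, numpy 2.4.6, pandas 2.3.3, scipy 1.17.1 and matplotlib 3.10.9 were used. The members, gene lists and windows were chosen with earlier results of these data known. All 7 members are named; list genes are named by a written rule, the first 2 of each role marked in all 5 libraries and in none. Of 21 cell type markers 20 were in the annotation. Alternatives were other windows and starts, a stricter q, equal list lengths, removal of peaks that overlap IgG peaks, no centring, a replicate block and each library left out.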

Additional observations from a re-analysis of the deposited data

How the results depend on the processing

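Calls near the start of HRAS, ARAF and MAP2K2 rest on 6 to 13 fragments at the summit, and read totals were not used here. Control replicate 3, which has the lowest floor of the H3K4me3 libraries, changes several counts, and the cause was not tested. The mean number of members with a promoter peak was 5.67 in control libraries within 10 kb, of the 5′ end as of any start, where the mean share of all genes was 44.1% and 48.1%. In HA-Bcl-xL libraries it was 5.5 within 2.5 or 10 kb of the 5′ end and within 1, 2.5 or 10 kb of any start, while the share of all genes went from 37.3% within 1 kb of the 5′ end to 52.7% within 10 kb of any start. It was 4.5 with a -log10 q of at least 5 or equal list lengths. The control mean was then 3.33 and 4.0, and the difference between the lines 1.17 with the stricter q, against 0.67. Under both of these last settings 1 member, BRAF, had a peak within 1 kb in all libraries. Within 2.5 kb BRAF and MAP2K1 had one in all libraries under both. The number of all genes with one there was 5151 before, 3646 with the stricter q and 4298 with equal list lengths. With 1 library left out, the number of members with a peak within 1 kb in all libraries ranged from 3 to 5. It reached 5 without control replicate 3, when the difference between the lines was 0. Over all genes, 6158 then had a peak within 2.5 kb in all remaining libraries, against 5151 with no library left out. IgG peaks at members numbered 1 when any transcript start was used within 1, 2.5 or 10 kb, a setting chosen after seeing the data, as was the count of BRAF peaks at equal list lengths and at the stricter q.

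Same-numbered libraries did not deviate together (correlations of 0.0 and 0.03 over genes). The 2 HA-Bcl-xL libraries gave mirrored correlations, so this check cannot tell whether same-numbered libraries were prepared together. With the replicate block, which leaves 1 residual degree of freedom, limma called 2 genes for bases under peaks and 1 for height, none of them a member. With 1 library left out it called 0 to 3 genes for bases under peaks (2 without HA-Bcl-xL replicate 2, 3 without replicate 3), again no member, the lone HA-Bcl-xL library being then assumed to vary like the controls.

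The signs of small differences changed. Without centring, the NRAS difference in bases was 0.099 and the BRAF difference in height -0.004, and with the replicate block the latter was -0.112. With regions merged within 500 bp the widths differed by 0.624 at BRAF, since its second peak joined the first, and by 0.002 at NRAS, against -0.263 and -0.489. The MAP2K1 difference in bases, 0.431, was 0.749 with the replicate block and 0.779 with the stricter q, and with 1 library left out it ranged from 0.218 (without control replicate 2) to 0.739 (without control replicate 1). The BRAF region width then ranged from -0.457 to -0.036. With 1 library left out, NRAS ranged from -0.275 to 0.227 in bases and -0.904 to 0.403 in height, BRAF from -0.119 to 0.214 in height, and MAP2K1 from -0.012 to 0.314 in region width. All other values kept their direction or stayed within the spread.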
